A study of Mus musculus with 12 samples.

Results

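Mouse iPS cell clones of the same genotype can differ from one another at single genes, and 9 genes with near all-or-none differences between clone series are described here: Asb14, Pnp, Pnp2, Ccnb1ip1, Gm5458, Slc25a18, Pudp, Arsk and Cacng2. They were chosen by the size of these differences in the same arrays, as candidates for alleles that vary between strains in a mixed background, so the differences between series are given as a description and support nothing. The array had 15 probes for these 9 genes, among 55681 non-control probes, of which 27235 were matched to 20660 named genes. Each probe is described separately.

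Gene expression was measured on one-colour arrays in 12 iPS cell clones, 1 array per clone. The clones came from 4 series of 3, 3 of them named by the start of the clone names: 967B (Aid+/+, clones 2, 4 and 6), 979B (Aid+/+, clones 1, 3 and 4), 979F (Aid-/-, clones 1, 2 and 3) and another (Aid-/-, clones 981E1, 981E4 and 981E5), called series E here after the letter in its clone names. The study asked whether the loss of Aid changes iPS cells. All clones carried the Nanog-GFP reporter, which also gives drug resistance under the Nanog promoter, were made from embryonic fibroblasts with retroviruses for Oct3/4, Sox2, Klf4 and c-Myc, and were given in the labels as male, at passage 6, grown on gelatin, and of a mix of C57BL6, DBA and 129S4. In Aid-/- clones both copies of the gene were disrupted in every cell. Slide 1 held the 967B clones, slide 2 the 979F clones, and slide 3 both the 979B clones and series E. The 979B and 979F clones share the number 979, which the study uses for 1 experiment. Slide and series therefore cannot be told apart for 967B and for 979F, and only 979B and series E were compared within a slide. Whether the clones of a series share a parent embryo was not given in the sources used here. The spread within a series is therefore that between clones of unstated origin, and p-values between series measure only this spread. The genotype fit has no term for series. Its p-values measure the spread between the 6 clones of a genotype, which includes the differences between their series, and take these clones as independent. The study reports that it established the independence of its clones from the integration pattern of the Klf4 transgene. Clones 967B2, 981E1 and 981E4 are among those whose pattern it lists as matching that of another clone. No other arrayed 967B clone is in that list. Whether 981E1 and 981E4 are the same clone was not settled here from its wording. If they are, n would be smaller than 3 in series E.

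Between 31664 and 33632 probes were well above background per array, and no spot was saturated. Each of the 12 probes of the pluripotency markers was detected well above background in every clone, and their summed level, as log2 of the sum of their linear signals, was between 9.40 and 9.99 in all clones. The 10 fibroblast marker probes had summed levels of 1.02 to 3.81 in 967B, 3.55 to 4.13 in 979B, 3.76 to 4.75 in series E and 4.55 to 5.07 in 979F; 5 of them were well above background on every array, and their part in the results was not tested.

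Inbred strains of mice hold different alleles at many genes, and cells from animals of mixed strain can differ in which alleles they carry. An allele can change how much of a transcript is made or whether a probe binds it, and a hybridization signal does not separate these. No alleles were read here. The genes have unrelated roles. Pnp and Pnp2 encode purine nucleoside phosphorylases, enzymes of purine salvage. Ccnb1ip1, also known as Hei10, encodes a ring-finger protein needed for meiotic crossovers. Asb14 belongs to the family of ankyrin repeat proteins with a SOCS box, which act as adaptors of Cullin-5 ubiquitin ligases. Slc25a18 encodes a mitochondrial glutamate carrier, Pudp a pseudouridine 5′-phosphatase, Arsk a lysosomal sulfatase, and Cacng2 encodes stargazin, which carries AMPA-type glutamate receptors to synapses. Gm5458 is a predicted gene.

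The sequences around the annotated starts of 5 of the genes are shown because these genes stand for the patterns that follow: Asb14 and Slc25a18 were detected in opposite sets of clones, Ccnb1ip1 and Pnp lie close to each other and differ in their pattern, and Arsk was undetected by 1 of its probes in a single series. They are 300-base windows from RefSeq on the build GRCm38.p6, written 5′ to 3′ on the strand of the gene, with 3 motifs on either strand in capitals: the TATA box as TATAAA, the GC box of Sp1 as GGGCGG, and the CCAAT box as CCAAT. The positions are chr14:26894364-26894663 (plus strand) for Asb14, chr6:120773518-120773817 (plus strand) for Slc25a18, chr14:50795679-50795978 (minus strand) for Ccnb1ip1, chr14:50944053-50944352 (plus strand) for Pnp and chr13:76098611-76098910 (minus strand) for Arsk. The array files use another build, mm9, and no position was carried between the builds.
Asb14: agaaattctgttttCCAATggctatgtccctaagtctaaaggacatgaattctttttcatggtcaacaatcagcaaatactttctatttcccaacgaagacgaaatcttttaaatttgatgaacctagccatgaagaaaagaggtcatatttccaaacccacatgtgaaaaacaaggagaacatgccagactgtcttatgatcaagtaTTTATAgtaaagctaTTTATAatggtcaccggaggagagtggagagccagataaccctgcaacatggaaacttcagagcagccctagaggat
Slc25a18: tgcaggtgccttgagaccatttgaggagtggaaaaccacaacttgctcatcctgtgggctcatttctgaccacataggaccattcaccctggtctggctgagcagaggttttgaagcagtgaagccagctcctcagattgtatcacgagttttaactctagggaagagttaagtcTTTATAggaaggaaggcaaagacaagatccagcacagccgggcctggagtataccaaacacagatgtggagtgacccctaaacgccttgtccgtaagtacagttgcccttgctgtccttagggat
Ccnb1ip1: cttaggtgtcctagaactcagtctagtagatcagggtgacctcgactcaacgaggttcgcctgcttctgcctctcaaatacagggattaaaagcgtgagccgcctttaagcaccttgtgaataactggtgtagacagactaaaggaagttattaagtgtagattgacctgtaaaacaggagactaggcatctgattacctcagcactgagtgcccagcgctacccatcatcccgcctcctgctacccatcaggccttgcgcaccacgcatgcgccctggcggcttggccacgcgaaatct
Pnp: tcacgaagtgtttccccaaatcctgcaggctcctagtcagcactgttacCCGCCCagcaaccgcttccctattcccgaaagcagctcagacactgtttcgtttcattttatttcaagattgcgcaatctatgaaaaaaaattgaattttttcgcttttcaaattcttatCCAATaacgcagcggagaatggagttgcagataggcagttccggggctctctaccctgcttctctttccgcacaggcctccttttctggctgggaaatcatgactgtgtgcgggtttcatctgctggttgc
Arsk: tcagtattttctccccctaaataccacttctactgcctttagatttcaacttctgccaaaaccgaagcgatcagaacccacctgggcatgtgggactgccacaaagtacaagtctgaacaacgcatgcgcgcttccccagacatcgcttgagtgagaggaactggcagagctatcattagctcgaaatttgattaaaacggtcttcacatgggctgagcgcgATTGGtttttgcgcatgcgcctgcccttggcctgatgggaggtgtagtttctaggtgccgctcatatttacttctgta

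TATAAA was found in the windows of Asb14 and Slc25a18 and in 13.6% of 32851 windows of all genes. CCAAT was found in those of Asb14, Pnp and Arsk and in 37.4% of all windows, and GGGCGG in that of Pnp and in 35.7% of all. The windows held 3 CpG dinucleotides in Asb14 and 4 in Slc25a18, against 12 in Pnp, 13 in Ccnb1ip1 and 13 in Arsk, with a median of 7 over all windows. Asb14 and Slc25a18 thus lay below the median and the other windows shown above it. A match is a description of letters and not of a site in use.

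All signals are log2 values relative to the 75th percentile of their array, so 0 is the level below which 75% of the probes of an array lie. They compare clones for 1 probe and do not rank different probes. A probe was taken as detected where the scanner software called it well above background, and the lowest detected signal was between -5.20 and -4.73 depending on the array. A signal below that has no level of its own, so a fold against a series without detection is given as a lower bound. It was computed against the lowest detected signal of each array, or the probe's own signal where this was higher. Such a bound holds only under the main background correction.

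Of the 15 probes, 5 were detected on all 12 arrays, 9 on some and 1 on none. All-or-none here means detected on all 3 arrays of at least 1 series and on no array of at least 1 other; 4 member probes of 4 genes were all-or-none, beside 1.9% of all probes. The largest difference between the means of the 4 series had a median of 3.16 over the member probes, against 0.48 over all probes and 0.48 over the 34813 probes that were detected on at least 3 arrays. In the limma fit with a mean per series, called at an adjusted p under 0.05 and a range of series means over 1, 11 of the 15 were called, beside 2.75% of all probes; the members were selected on these values, so nothing is read from their count. The others were both Pnp probes and the brighter probes of Arsk and Cacng2.

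**Figure D1:**
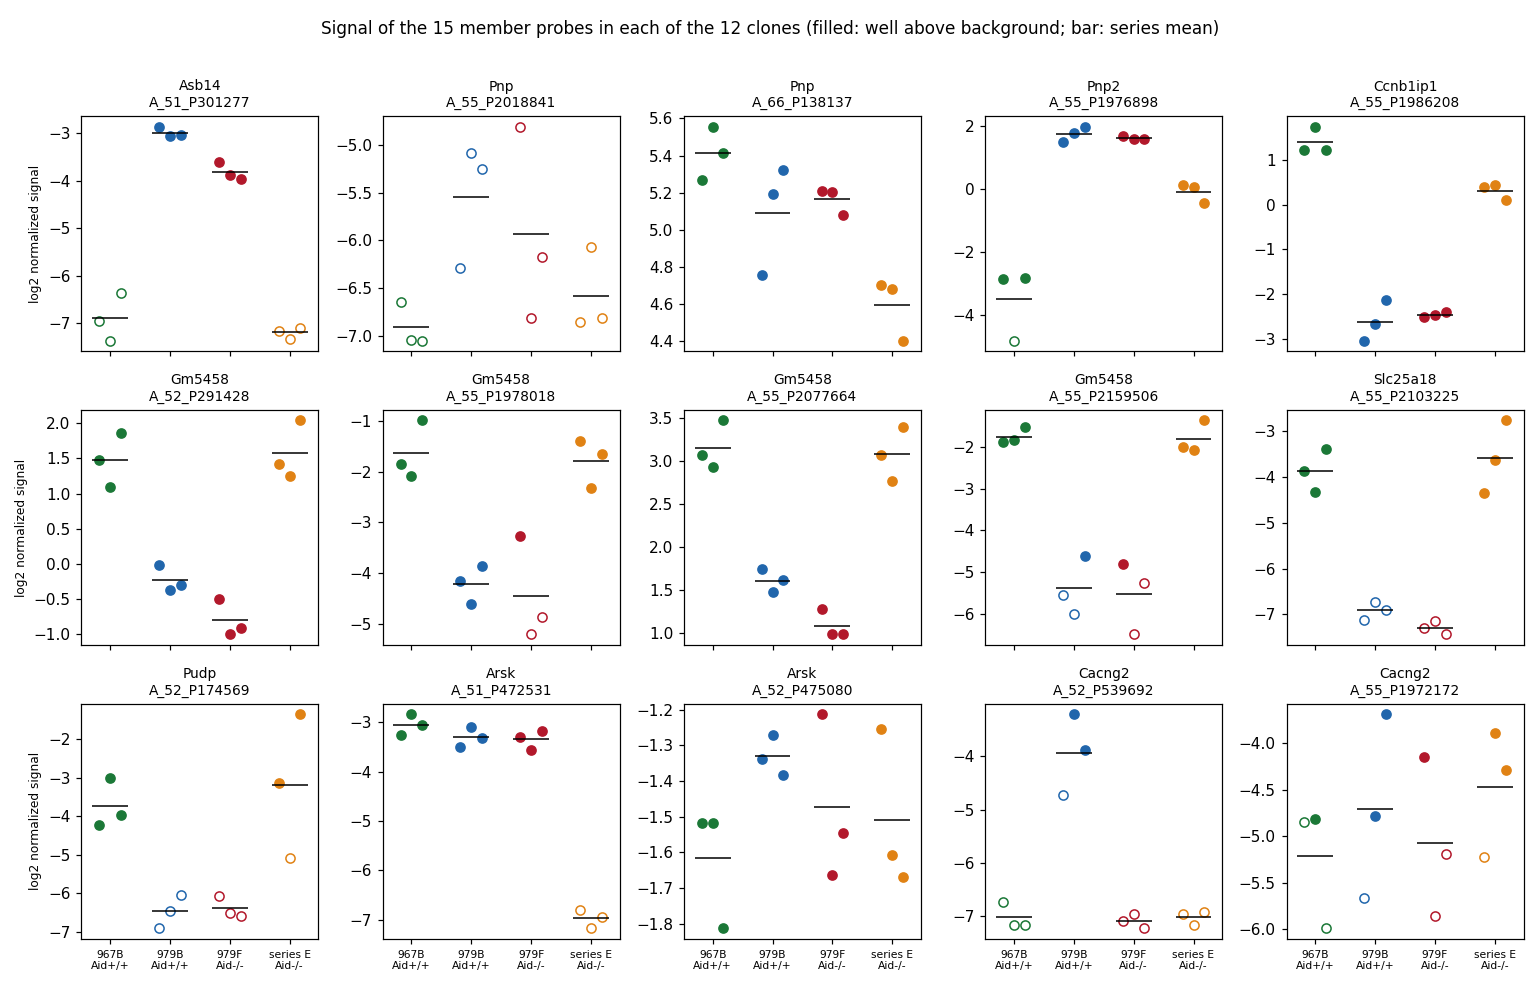
Log2 normalized signal (vertical axis, 1 panel per probe, each with its own scale) of the 15 member probes in the 12 clones, arranged by series (horizontal axis). Filled points are well above background, open points are not, and bars are series means; Asb14, Slc25a18 and Pudp separate the 979 series from the others, the dim Arsk probe separates series E, and the dim Cacng2 probe is above background only in 979B.

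Asb14 was detected in all 6 clones of the 979 series and in none of the other 6. Its log2 signal was -2.85, -3.06 and -3.04 in 979B and -3.60, -3.87 and -3.96 in 979F. In 967B it was -6.96, -7.37 and -6.36, and in series E it was -7.16, -7.33 and -7.09. The lowest 979 clone thus lay above the highest of the others by more than any spread within a series, and the SD within series was 0.28. The 979B mean was at least 4.02-fold that of 967B and at least 3.93-fold that of series E, and for 979F these bounds were 2.26 and 2.21. Between the 979 series, 979B exceeded 979F 1.78-fold, without overlap of their clones. The 967B and series E clones overlapped.

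Pnp2 and Ccnb1ip1, on the same chromosome, had opposite patterns. The Pnp2 signal was 1.5, 1.77 and 1.98 in 979B, and 1.67, 1.58 and 1.59 in 979F. It was 0.11, 0.05 and -0.46 in series E, and -2.88, -4.83 and -2.85 in 967B. The 979 series overlapped at the top, series E lay below them and 967B lowest, so Pnp2 took 3 separate levels. The 979B mean was 38.5-fold the 967B mean and 3.60-fold the series E mean, and the series E mean lay 3.42 above that of 967B on the log2 scale. The probe was detected on every array except that of 967B4, so the fold against 967B is not exact, and without 967B4 the range of series means was 4.61 instead of 5.27 on the log2 scale.

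Ccnb1ip1 was detected on all 12 arrays, so its differences are ratios of measured levels. Its signal was 1.21, 1.74 and 1.22 in 967B, and 0.39, 0.43 and 0.10 in series E. It was -3.03, -2.67 and -2.12 in 979B, and -2.51, -2.46 and -2.39 in 979F. The order of the levels was the reverse of that of Pnp2, with 967B highest, series E next, and the 979 series lowest and overlapping. The 967B mean was 15.9-fold that of 979B and 14.4-fold that of 979F, and for series E the folds were 7.53 and 6.78. The 967B mean exceeded the series E mean 2.12-fold. Across the 12 arrays the Pearson r between Pnp2 and Ccnb1ip1 was -0.90, a description of clones that fall into series.

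Pnp is the gene next to Pnp2 among genes with a probe, and its series lay far closer together. Its bright probe, A_66_P138137, had signals of 5.27, 5.56 and 5.41 in 967B and 4.76, 5.19 and 5.32 in 979B. They were 5.21, 5.20 and 5.08 in 979F, and 4.70, 4.68 and 4.40 in series E. The series E clones were the lowest, and the 967B mean was 1.76-fold the series E mean, while 979B and 979F differed 1.05-fold. The other Pnp probe, A_55_P2018841, was detected on no array, with signals from -7.04 to -4.81, and gives no level. Pnp and Pnp2 are closely related copies, and how far each probe binds the other transcript was not tested.

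Gm5458 had 4 probes, and all 4 were higher in 967B and series E than in the 979 series, with no overlap. The brightest, A_55_P2077664, had signals of 3.07, 2.92 and 3.47 in 967B and 3.07, 2.77 and 3.40 in series E. In 979B it was 1.74, 1.47 and 1.62, and in 979F it was 1.28, 0.99 and 0.99. The 967B and series E means differed only 1.05-fold, and the 6 clones of both series were 3.41-fold above the 6 of the 979 series. By A_52_P291428, detected on every array, this fold was 4.10. The other 2 probes, A_55_P1978018 and A_55_P2159506, were detected in all 6 clones of 967B and series E but in only 4 and 2 of the 6 clones of the 979 series. Their ratios of measured means, 6.16 and 12.9, therefore include signals that have no level and are not sizes of a change. The 4 probes split the clones alike, and the order of their sizes turned with a normexp background correction, under which the ranges of these dim probes were 1.22 and 1.58 and those of the bright probes 2.13 and 2.01. A probe of a predicted gene can bind transcripts of related genes, and this was not tested.

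Slc25a18 was detected in the 6 clones in which Asb14 was not. Its signal was -3.86, -4.34 and -3.40 in 967B and -4.35, -3.64 and -2.77 in series E. It was -7.11, -6.73 and -6.90 in 979B, and -7.30, -7.15 and -7.44 in 979F, below background on each array. The series E mean was at least 2.69-fold that of 979B and at least 2.71-fold that of 979F, and the 967B mean at least 2.22-fold and 2.23-fold. Clones of 967B and series E overlapped. The gene lies on chromosome 6, and its signal was low in 979F (Aid-/-) and 979B (Aid+/+) alike.

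Pudp had the widest spread within a series. Its signal was -4.22, -3.00 and -3.97 in 967B, and -3.13, -5.09 and -1.36 in series E. It was -6.91, -6.47 and -6.04 in 979B, and -6.06, -6.51 and -6.61 in 979F. It was detected in 967B2, 967B4, 967B6, 981E1 and 981E5 and in no 979 clone, while 981E4 was not well above background. The 967B mean was at least 2.44-fold that of 979B and at least 2.46-fold that of 979F. The series E mean carried an SD of 1.87, so its level is not well defined by 3 clones.

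The Arsk probes disagreed with each other. By A_51_P472531 the signal was -3.27, -2.84 and -3.05 in 967B, -3.50, -3.10 and -3.33 in 979B, and -3.29, -3.56 and -3.18 in 979F. In series E it was -6.80, -7.18 and -6.94, below background in all 3 clones. The 3 detected series overlapped, and their means were at least 3.74-fold (967B), 3.13-fold (979B) and 3.06-fold (979F) that of series E. By A_52_P475080, detected on all 12 arrays, the means lay between -1.62 and -1.33, a range of 0.29 with an SD within series of 0.18, and the series E clones, at -1.25, -1.61 and -1.67, lay among the others. So the loss of signal in series E was seen by 1 of 2 probes of the gene. Which parts of the transcript the probes bind was not analysed here.

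The Cacng2 probes also differed. A_52_P539692 had signals of -4.73, -3.21 and -3.88 in 979B, of which the last 2 were well above background, and of -7.24 to -6.75 in all 9 other clones. The 979B mean was at least 2.03-fold to 2.12-fold that of the other series, with 2 of 3 arrays measured. A_55_P1972172 was detected on 6 of 12 arrays, with 1 or 2 clones in each series, at signals from -5.99 to -3.69, and no 2 series were free of overlap. Of all member probes the dim Cacng2 probe had the largest difference between 979B and 979F, and it was seen by 1 of 2 probes.

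Over the set, 9 probes of 6 genes (Asb14, Pnp2, Ccnb1ip1, Gm5458, Slc25a18 and Pudp) did not overlap between the 6 clones of the 979 series and the 6 others and differed by over 1 on the log2 scale, beside 0.77% of all probes; this again is a description of members selected for such differences. Within slide 3, where 979B and series E were hybridized together, 979B minus series E was 4.21 for Asb14, 1.85 for Pnp2, -2.91 for Ccnb1ip1, -3.32 for Slc25a18, -3.28 for Pudp and -3.59 to -1.47 for the Gm5458 probes. On this slide series and genotype are the same thing, and what sets these differences was not tested. Between slides but within the 979 series, 979F minus 979B was -0.83 for Asb14 and between -0.57 and 0.15 for the probes of the other 5 genes.

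**Figure D2:**
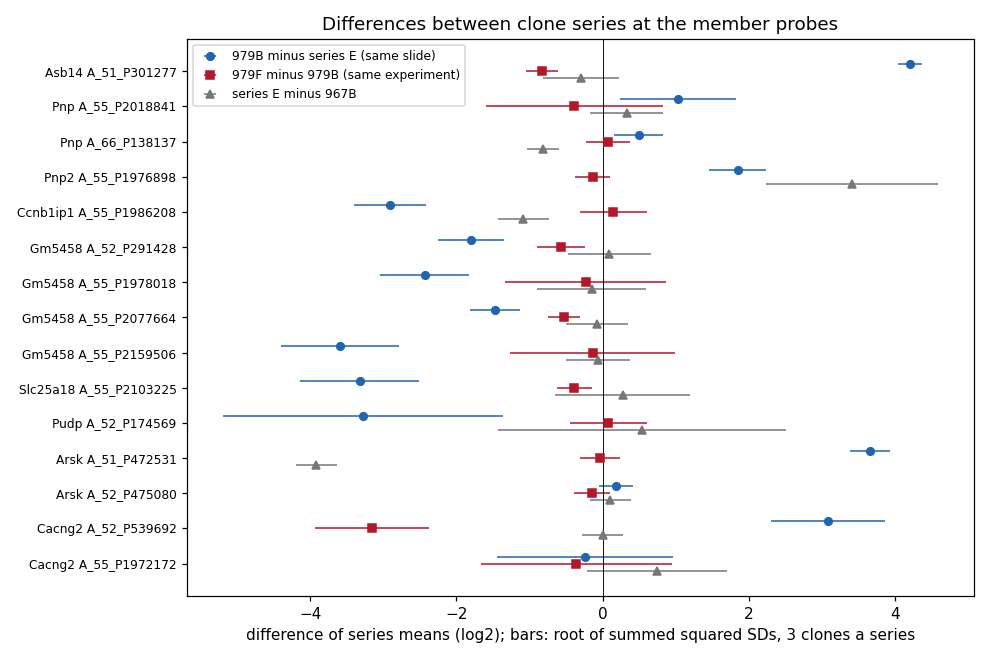
Differences of series means on the log2 scale (horizontal axis) for the 15 member probes (vertical axis): 979B minus series E on the same slide (circles), 979F minus 979B from the same experiment (squares) and series E minus 967B (triangles), with bars of the root of the summed squared SDs of 3 clones a series. Circles lie over 1 from 0 for 12 probes while most squares lie near 0, with the dim Cacng2 probe, at -3.16, as the exception.

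The comparison the study was made for, Aid-/- against Aid+/+, did not separate the members. In limma, 0 member probes were called between genotypes (adjusted p under 0.05 with a change over 1 on the log2 scale), beside 0.0341% of all probes. An unadjusted p under 0.05 in limma was found for 2 of them. The share of all probes at this p was not counted, so nothing is read from these 2. By the methods' t-test 0 member probes were called, beside 37 of all 55681 probes. The genotypes overlapped at all 15 member probes. Asb14 was -4.94 ± 2.17 in Aid+/+ and -5.50 ± 1.86 in Aid-/- clones (mean and SD, n = 6 each), and Slc25a18 was -5.39 ± 1.70 and -5.44 ± 2.09. These SDs are several times the SDs within series, since each genotype held 1 series of either level. The largest genotype differences in size were those of the dim Arsk probe, at -1.98, of Pnp2, at 1.64, and of the dim Cacng2 probe, at -1.58, each set by 1 series. Within slide 3 alone, where genotype and series are the same thing, 10 of 15 were called, beside 690 of all 55681 probes. Within the 979 series 1 of 15 was called, beside 231 of all 55681 probes. The members were selected on differences between series, so nothing is read from these 2 counts.

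Of the 9 genes, 5 lie on chromosome 14: in order Gm5458, Asb14, Ccnb1ip1, Pnp and Pnp2. Among genes with a probe, 59 lie between Gm5458 and Asb14, 183 between Asb14 and Ccnb1ip1, 5 between Ccnb1ip1 and Pnp, and 0 between Pnp and Pnp2. Slc25a18 lies on chromosome 6, Arsk on 13, Cacng2 on 15 and Pudp on 18. Genes next to the members were examined by the same series fit. The 5 genes on either side of each member comprised 75 genes with 101 probes, of which 4 were called, beside 2.75% of all probes, and none was all-or-none. Of the 77 neighbouring probes that entered a fit over probes detected on at least 3 arrays, 4 were called, beside 5.7% of that set. The median range of the 101 was 0.48, equal to that over all probes.

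The called neighbours were Hesx1 beside Asb14, Nid2 and Gng2 beside Gm5458, and Glrx beside Arsk. Of the 101 neighbouring probes, 1 did not overlap between the 979 series and the others with a difference over 1, beside 0.77% of all probes. This was Hesx1, a homeobox gene of early development. Its mean was 0.27 in 979B and -0.22 in 979F, against -1.77 in 967B and -1.73 in series E (adjusted p = 0.009 in limma), the same direction as Asb14. Nid2, a basement membrane gene, had means of 3.87 in 967B, 4.02 in series E, 3.36 in 979B and 3.00 in 979F (adjusted p = 0.018 in limma). Gng2, a G protein subunit, was lowest in 979F, at 2.86, and 3.72 to 4.25 in the other series (adjusted p = 0.010 in limma). Glrx, a glutaredoxin, was -1.06 in 967B and 0.02 in series E (adjusted p = 0.045 in limma), and did not follow the Arsk probe. No neighbour of Pnp, Pnp2, Ccnb1ip1, Slc25a18, Pudp or Cacng2 was called.

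Wider windows of 25 genes on either side were examined around Pnp and Slc25a18. Around Pnp, 23 detected probes had a median absolute difference between the 979 series and the others of 0.26 and a maximum of 1.14, at Mettl17. Around Slc25a18, 50 probes had a median of 0.21 and a maximum of 1.21, at A2m. The median over all 34813 detected probes was 0.18, and 3.73% of them were over 1. The large differences of Pnp2, Ccnb1ip1 and Slc25a18 thus stood among neighbours with small ones.

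**Figure D3:**
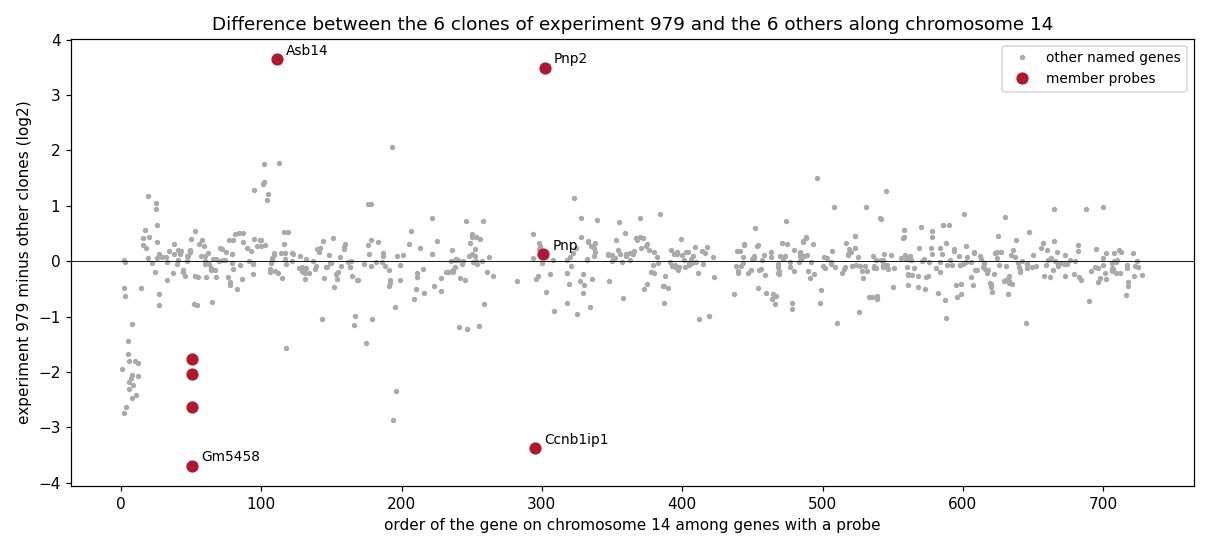
Difference of the mean log2 signal between the 6 clones of the 979 series and the 6 others (vertical axis) for probes of chromosome 14 detected on at least 3 arrays, in the order of their genes (horizontal axis). Member probes are marked. Those of Gm5458 lie at the lower edge, as does a group of genes at the start of the chromosome, with genes of smaller differences between them. Asb14 and Pnp2 lie at the top, and Pnp lies near 0 beside Pnp2.

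On chromosome 14 as a whole, with the members left out, 31 of 685 named and detected probes (4.53%) did not overlap between the 979 series and the others with a difference over 1, against 120 of 19491 (0.616%) on all other chromosomes. The next highest shares were 1.08% on chromosome 9 and 1.07% on chromosome 1. Of the 31, 18 were among the 62 probes up to Gm5458 (29.0%), and 13 were among the 623 after it (2.09%). The differences over 1 up to Gm5458 lay mostly at the start of the chromosome, up to Gm5797, gene 12 in the order. Between Gm5797 and Gm5458, gene 51, the only differences over 1 were 1.18 at a Pdhb probe and 1.05 at an Fhit probe. The high share thus does not run along the stretch to Gm5458. Chromosome 14 was picked for this count after its values were seen, genes of a chromosome are not independent, and the genes at its start are closely related predicted genes that can share probes, so no test was made.

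The genes whose signal was most like that of a member over the 12 arrays were listed by Pearson's r, with no claim on shared function, among 3018 probes of other named genes that were detected on at least 3 arrays with a range over 1. Since the clones fall into series, a high r mainly says that the series have the same order. For Asb14 they were Pdhb (r = 0.98), Hesx1 (0.96) and Slc4a3 (0.95). Each r is that of 1 probe of the gene. By this probe Pdhb, a subunit of pyruvate dehydrogenase, was 5.86 in the 979 series and 4.67 in the others, but by its other probe the difference was only 0.05. For Pnp2 they were Gm3219 (0.98), Pard3 (0.95) and Tmem260 (0.95), and for Ccnb1ip1 Ktn1 (0.95), Gm10413 (0.94) and Acap1 (0.94). Ktn1, which encodes the kinesin receptor kinectin, was 3.75 in 967B, 3.08 in series E, 2.37 in 979B and 2.10 in 979F, the same order as Ccnb1ip1 for the first 2.

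For the brightest Gm5458 probe the most similar were Gm5797, Gm2897 and 4930555G01Rik, with r of 0.997, 0.996 and 0.996, all on chromosome 14. For Slc25a18, on chromosome 6, they were Gm10413 (0.99), Gm5796 (0.98) and Gm3317 (0.98), which are also on chromosome 14. The r between Slc25a18 and the 4 Gm5458 probes was 0.90 to 0.97. For Pudp they were Rnpc3 (0.95), Stx3 (0.92) and Arl14ep (0.91), and for the bright Pnp probe Pik3cd (0.92), Mycl (0.91) and Hopx (0.89). For the brighter probes of Arsk and Cacng2, which did not separate series, the highest r were 0.78 (Hes5) and 0.76 (Ampd3). Over the 9 genes 26 different genes were named, of which 12 lie on chromosome 14, a chromosome that holds 4.44% of the 3018 probes. These genes were picked for likeness to members of which 5 lie on that chromosome themselves. Several are related predicted genes that can share probes, and genes are set beside probes here, so nothing is read from this count.

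Other genes of the same pathways were counted in the same series fit. Lists of purine salvage, meiotic crossover, ASB and Cullin-5 ligase, mitochondrial glutamate and aspartate transport, lysosomal sulfatase, AMPA receptor and pseudouridine genes, and of genes with known alleles between strains, had 135 probes outside the members. Of these, 2 were called between series, beside 2.75% of all probes, and 6 of 111 in the fit over detected probes, beside 5.7%. The called were Asb8, another SOCS box protein, and Gria4, an AMPA receptor subunit that was detected on no array and has no level. Asb8 by A_51_P142091 was 2.03 in 967B and 2.32 in series E against 1.27 in 979B and 1.53 in 979F (adjusted p = 0.007 in limma), lower where Asb14 was higher. Its other probe, A_55_P2004096, split the clones alike, with a range of 0.95 (adjusted p = 0.008 in limma).

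The counts at an unadjusted p that follow are to be read beside the 21.9% of all probes that had a p under 0.05 between series in limma. In purine salvage, 0 of 20 probes were called, 2 had an unadjusted p under 0.05 in limma, and the median range was 0.45; Hprt, which salvages hypoxanthine and guanine, was between 5.78 and 5.98 in all series. In meiotic crossover 0 of 18 were called and 7 had an unadjusted p under 0.05 in limma, with a median range of 0.60. In mitochondrial glutamate and aspartate transport 0 of 12 were called and 7 had an unadjusted p under 0.05 in limma; Slc25a22, the other glutamate carrier, was -0.43 in 979F and -1.72 to -1.13 in the other series (adjusted p = 0.055). Among lysosomal sulfatase genes 0 of 22 were called, with 4 at an unadjusted p under 0.05 in limma, and among pseudouridine genes 0 of 15, with 11 at an unadjusted p under 0.05 in limma and a median range of 0.45. Of the AMPA receptor list 1 of 15 was called, and 6 of these probes were detected on no array. Of the genes with known alleles between strains (Nnt, Glo1, Gabra2 and Wdfy1), 3 had a probe, and 0 of 6 probes were called, with 4 at an unadjusted p under 0.05 in limma; Glo1 had an adjusted p of 0.041 in limma with a range of 0.57. Of the fibroblast markers 0 of 10 were called and 8 had an unadjusted p under 0.05 in limma, with a median range of 2.82.

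The size of the differences of the dim probes rested on the background correction. With a normexp correction of the median signals, which raises low signals, the range of Asb14 was 1.14 in place of 4.21, that of Slc25a18 0.85 in place of 3.71, that of Pudp 0.86 in place of 3.28, that of the dim Arsk probe 0.89 in place of 3.92 and that of the dim Cacng2 probe 0.72 in place of 3.16. The dim Gm5458 probes moved likewise, to 1.58 from 3.79 (A_55_P2159506) and to 1.22 from 2.81 (A_55_P1978018). For the bright probes it moved less: 3.84 in place of 5.27 for Pnp2, 3.22 in place of 4.00 for Ccnb1ip1 and, for the bright Gm5458 probes, 2.13 in place of 2.37 and 2.01 in place of 2.07. The highest series stayed above the lowest at all of these. The normexp correction added an offset of 50 to the signals. Under it the differences of dim probes can be smaller than the lower bounds given above, which therefore do not hold across background corrections.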

How the data were processed

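The arrays were scanned and the spots read by the authors with Agilent Feature Extraction 10.7.3.1, which gave for each spot a processed intensity, corrected for background but not normalized between arrays, and the median intensities of spot and local background. The deposited log2 values, on which the authors' 75% normalization had been run, followed the values used here with a Pearson r of 1 on each array and served as an alternative. Here outlier spots and controls were dropped, the log2 processed intensity was averaged over the spots of each probe, and every array was centred on its 75th percentile. All 55681 probes were fitted in limma 3.58.1 (R 4.3.3) with a mean per series, and separately with genotype alone (Benjamini-Hochberg adjustment). The fits were tested on simulated data. Names and gene order came from accessions matched to RefSeq (GRCm38.p6), and no position of it was used with the mm9 array. Genes named were all probes of the members, the called neighbours and list genes, the 3 probes most like the brightest probe of each member, and genes added after their values were seen (Mettl17, A2m, Hprt, Slc25a22 and Glo1). The members and lists were chosen with earlier results of these data known. Alternatives were the normalization, the background correction, the filter, the blocks and leaving out each clone. The number of arrays limits the precision. Tables were made with pandas 2.3.3 and numpy 2.4.6 in Python 3.11.15, and plots with matplotlib 3.10.9. The level of the targeted gene is not reported here.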

Additional observations from a re-analysis of the deposited data

How the results depend on the processing

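The count of member probes detected all-or-none was 4, beside 1060 of all probes. When 1 clone was left out it was 4 to 6, beside 1260 to 1498 of all probes. At no member probe did the difference between its highest and lowest series turn under the normalizations, the background correction or leaving out a clone. Smaller differences between other series were not followed. With normexp on the median signals, chosen after the data were seen since the files hold no mean signal, 806 probes in place of 1534 and 7 member probes in place of 11 were called between series, and the median member range was 0.89 in place of 3.16. At a range over 2, 356 probes, 1 neighbour and 0 listed probes were called. The listed count of 2 became 5 under quantile normalization, 5 with the percentile over detected probes, 6 with the filter on dim probes and 4 with trend and robust fitting. All-or-none probes numbered 2620 in place of 1060 where 2 of 3 arrays sufficed. Leaving out 1 clone gave 677 (without 979F3) to 2690 (without 967B4) probes between series, 2 to 6 neighbours and 1 to 7 listed probes.

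Between genotypes, 19 probes were called, and 29 under quantile normalization, 31 with the filter, 37 by the methods' t-test, 6 with series and 9 with slide as a random block, and 6 to 33 without 1 clone. Slide as a fixed block, which leaves 979B against series E as the contrast, gave 1185 probes and 11 members, slide 3 alone 690 and 10, and experiment 979 alone 231 and 1. Clone numbers do not pair the clones (correlations of same-numbered clones -0.27 to 0.15). With the replicate block, which takes up most residual degrees of freedom, 1 probe and 0 members, neighbours and listed probes were called between series, and 0 probes between genotypes. Signal over background limits the dim probes: a group with no detected array gives a bound, and one with only some gives no exact fold.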
